A study of Mus musculus with 9 samples.

Results

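The genes described here are 38 genes of protein folding in the endoplasmic reticulum (ER) and of the unfolded protein response, chosen by symbol. They were chosen with earlier results of these data known, so counts over the 38 describe this set and do not test it. All 38 were found among the 37187 genes counted in LSK cells and among the 45076 gene symbols counted in Ly6G-positive neutrophils, and all 38 passed the filter on low counts in both populations. LSK cells are the Lin-negative, Sca-1-positive, Kit-positive fraction of the bone marrow, which holds blood stem cells and multipotent progenitors. Transcripts were counted by RNA-seq in 9 libraries from bone marrow of mice aged 4 to 12 weeks: 2 Spop(D/D) LSK libraries, 3 Spop(D/D) neutrophil libraries, 2 Spop(+/+) LSK libraries and 2 Spop(+/+) neutrophil libraries, called KO and WT below. Spop is the substrate-binding subunit of a cullin-3 ubiquitin ligase, and the series asks how it holds back blood formation during inflammation through the adaptor MyD88. No treatment is given for either genotype. The deleted stretch of Spop, the driver of any recombinase and the number of animals behind a library are likewise not given in the labels. A p-value here therefore weighs a difference only against the scatter of these libraries, part or all of which may be technical.

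Proteins bound for secretion, membranes and granules enter the ER through the Sec61 channel, lose their signal peptide, receive sugars, and fold with the help of chaperones and disulphide isomerases. When unfolded proteins build up, the membrane sensors ATF6, IRE1 (Ern1) and PERK (Eif2ak3) start the unfolded protein response. ATF6 and the spliced form of XBP1 raise chaperones and degradation factors, while PERK slows translation and lets ATF4 through, which can raise the pro-apoptotic factor CHOP (Ddit3). Blood stem cells are known for a low rate of protein synthesis, and granulocyte precursors for heavy traffic of granule proteins through the ER.

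The DNA elements through which this response acts are known, so the windows from 250 bases before to 50 bases after the start of the genes were read first (RefSeq, GRCm38.p6). Of the 38 genes, 30 had a window. The ER stress response element, ERSE, consists of CCAAT and CCACG separated by 9 bases of any kind and is the element of ATF6 and XBP1. It stood in the windows of 8 genes, 9 times in all. The 9 matches are shown because this is the element through which the response is known to reach chaperone genes. Each is written 5′ to 3′ on the strand on which CCAAT comes before CCACG, with the element in capitals and 5 flanking bases on each side.

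Hspa5 (chr2:34772020-34772048, plus strand): cttcaCCAATCGGAGGCCTCCACGacggg

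Hsp90b1, the match nearer to the start (chr10:86705528-86705556, plus strand): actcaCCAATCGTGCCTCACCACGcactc

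Hsp90b1, the farther match (chr10:86705633-86705661, minus strand): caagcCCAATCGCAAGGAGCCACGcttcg

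Dnajc3 (chr14:118937822-118937850, plus strand): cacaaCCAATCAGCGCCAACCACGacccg

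Calr (chr8:84847070-84847098, plus strand): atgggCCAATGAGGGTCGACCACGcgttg

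Canx (chr11:50325795-50325823, minus strand): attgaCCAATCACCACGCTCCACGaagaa

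Pdia6 (chr12:17266486-17266514, plus strand): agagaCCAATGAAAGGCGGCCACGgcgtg

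Creld2 (chr15:88819515-88819543, minus strand): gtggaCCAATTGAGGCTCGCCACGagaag

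Syvn1 (chr19:6046527-6046555, plus strand): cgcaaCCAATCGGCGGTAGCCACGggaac

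The second element, ERSE-II, has ATTGG and CCACG separated by 1 base. It stood in the windows of 2 of the 30 genes, shown in the same way.

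Dnajb11 (chr16:22857847-22857867, plus strand): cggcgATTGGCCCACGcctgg

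Herpud1 (chr8:94386372-94386392, plus strand): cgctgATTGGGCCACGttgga

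ERSE matches lay between 212 and 26 bases before the start. With both strands searched, 26.7% of the 30 genes held an ERSE in any of their windows, against 0.137% of all 27025 genes with a window of the same length. ERSE-II was in 6.67% of the 30 genes and in 0.0444% of all genes with a window. Other elements were searched for on both strands as well. The XBP1 element UPRE in the form TGACGTGG was in Txndc5 and Txndc11 (0.714% of all genes with a window) and in the form TGACGTGA in Hspa5 (0.507%). The ATF4 element CARE, TGATGNAA, was in Txndc5 and Herpud1 and in 4.51% of all genes with a window. A match is a run of letters and no measurement of binding. Spcs3, Sec11c, Atf6, Ostc, Manf, Hyou1, Sec61a1 and Derl1 had no window in the table.

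**Figure D1:**
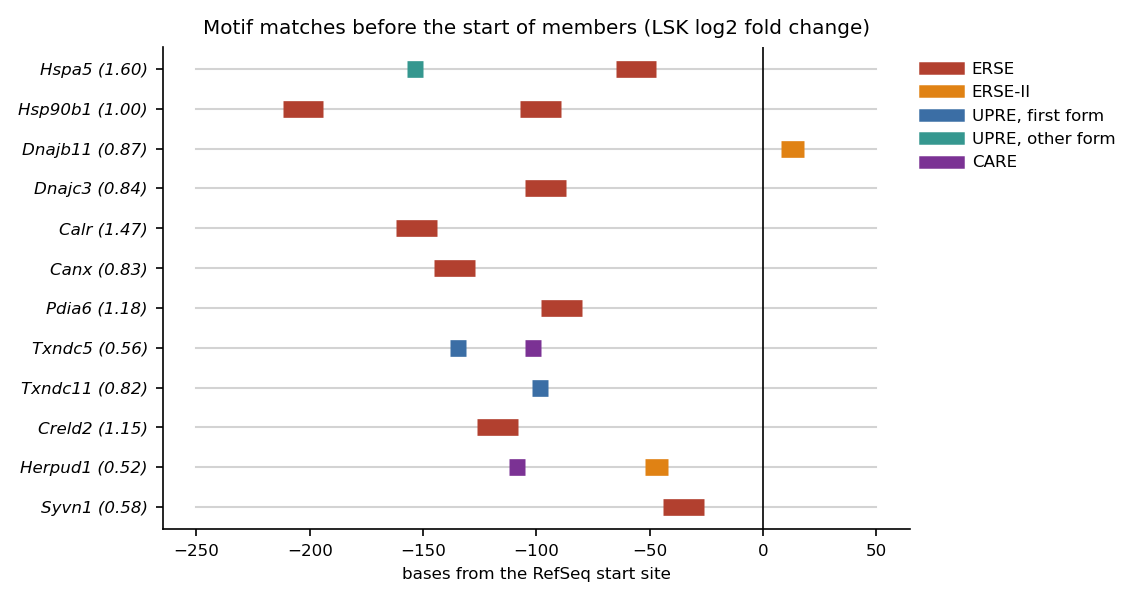
Position of each motif match (coloured blocks) relative to the RefSeq start site (0, in bases) in the 12 genes with at least 1 match, with the log2 fold change of KO over WT LSK cells in brackets. ERSE blocks lie 26 to 212 bases before the start, and the ERSE-II of Dnajb11 lies just after it. The UPRE and the CARE of Txndc5 belong to different start sites, and each is drawn relative to its own.

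For the second KO LSK library the labels disagree: title and source give LSK, the cell type entry gives neutrophil. Its reads went with the title: Ly6g had 0 reads in all 4 LSK libraries, and the sum of 11 neutrophil markers there was 228 CPM (read counts per library size, with TMM factors), against 37089.9 to 644705 CPM in the neutrophil libraries. Among the neutrophil libraries, the second WT and the third KO library stood apart in markers of other cells, with values given beside the neutrophil results.

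Most of the ER folding genes were higher in KO LSK cells. Of the 38 genes, 33 rose and 0 fell (edgeR quasi-likelihood test, Benjamini-Hochberg adjusted p under 0.05 over all 13008 genes tested), while 21% of all genes tested rose and 21.2% fell. The median log2 fold change over the 38 was 0.83, against -0.03 over all genes tested. A rise of 2-fold or more was called for 14 of them, compared with 4.51% of all genes. Both KO libraries lay above both WT libraries for 34 of the 38 genes and below them for 1, Ddit3; over all genes these arrangements made up 34.6% and 38.3%. The 38 genes took 2.19% and 2.20% of the counted reads of the KO libraries, against 1.15% and 1.15% in the WT libraries, with nearly equal shares within a genotype. In bulk samples, more cells of a type and more RNA per cell cannot be told apart.

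The calls depended on how the spread was estimated. In 1 fit of all 9 libraries, where the LSK libraries shared their spread with the more variable neutrophil libraries, 0 genes and 0 of the 38 were called in LSK cells, with a median log2 fold change of 0.84. Under each of the other 11 alternatives run for LSK cells, 31 to 34 of the 38 rose. Without the second KO LSK library, whose labels disagree, 34 of the 38 genes rose and 0 fell (median 0.92), and 14 of the 14 genes of 2-fold change were still called, at 1.99- to 4.02-fold.

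**Figure D2:**
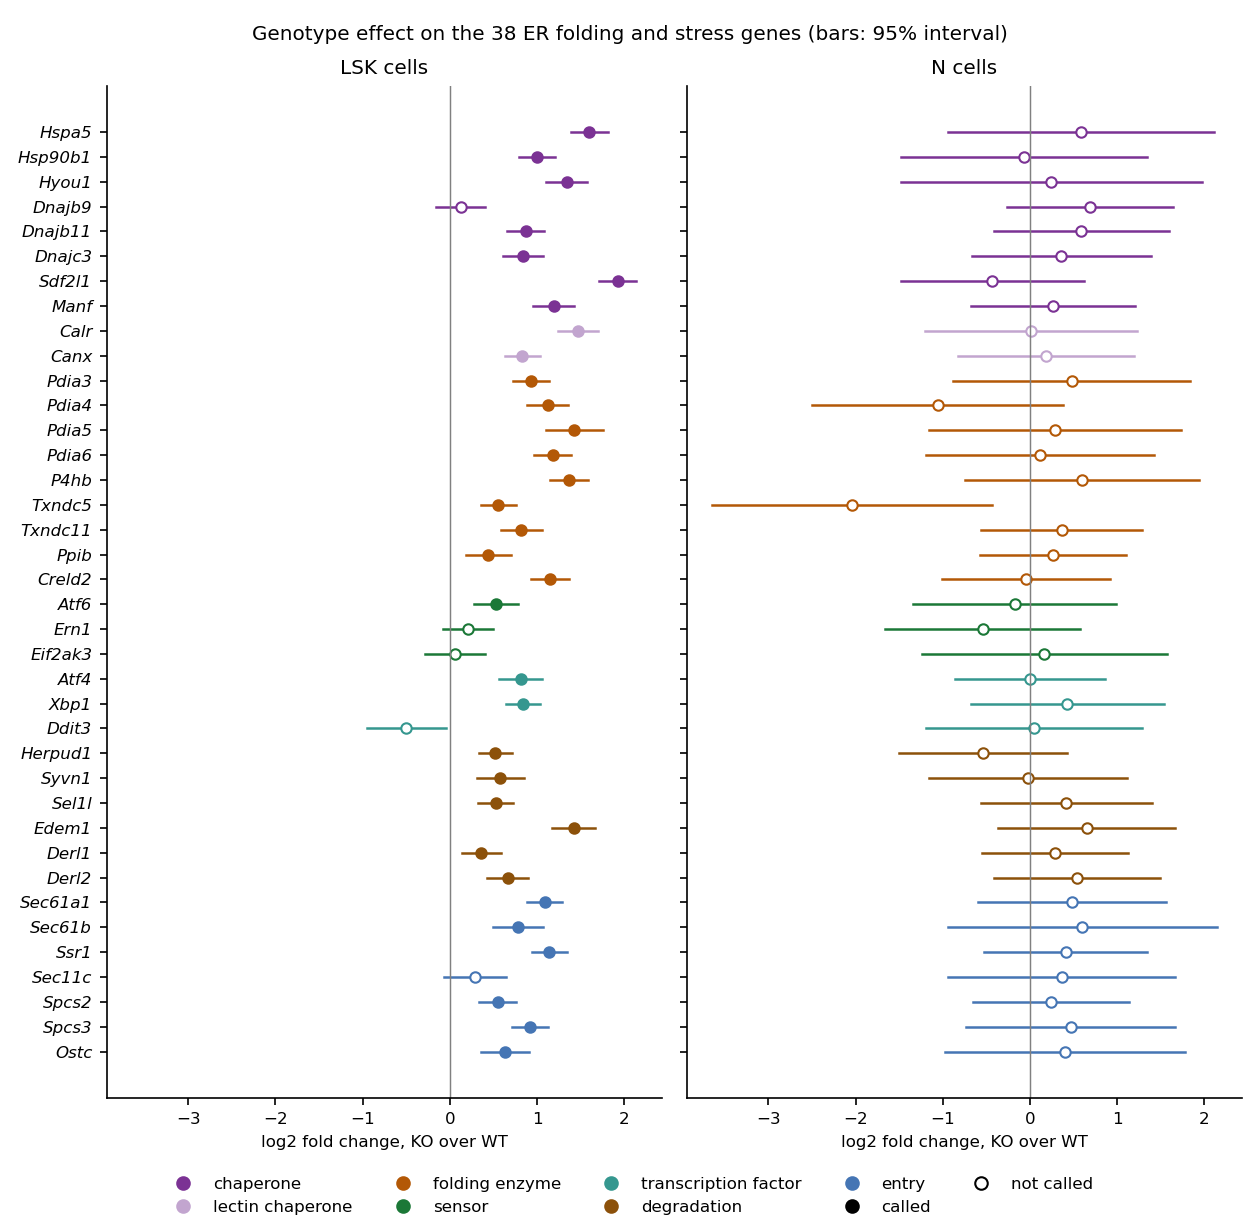
Log2 fold change of KO over WT for each of the 38 genes in LSK cells (left) and neutrophils (N, right), with 95% intervals, coloured by role, filled where the adjusted p was under 0.05. In LSK cells 33 points are filled and all but Ddit3 lie above 0; in neutrophils none is filled and the intervals are wider.

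Spop itself was read as a check of the labels. It stood at 312 and 306 CPM in KO LSK libraries, against 380.4 and 390.1 CPM in WT LSK libraries (log2 fold change -0.32, SE 0.0889, adjusted p = 0.0118, edgeR), a call lost without the first or the second WT library (adjusted p = 0.0832 and 0.117) and in 1 fit of all 9 libraries (adjusted p = 0.880). In neutrophils it was 158, 178 and 210.0 CPM in KO and 135 and 194 CPM in WT (log2 fold change 0.15, SE 0.403, adjusted p = 0.901). Which exons are deleted is not given, so the level of the whole gene does not check the genotype in either population.

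The chaperones of the HSP70 and HSP90 families and their partners held 7 genes that rose of 8. Hspa5 encodes BiP, the HSP70 of the ER, which binds unfolded chains and keeps the sensors inactive. It stood at 3005 and 3071 CPM in KO LSK libraries, against 979 and 1025 CPM in WT LSK libraries. The genotypes lay far apart, 3.03-fold (log2 1.60, SE 0.0986, adjusted p = 2.42e-07, edgeR). Sdf2l1, a partner of BiP in the lumen, had the largest change of the 38. It was at 506 and 454 CPM in KO and at 127 and 126 CPM in WT, 3.80-fold higher in KO (log2 1.93, SE 0.0972, adjusted p = 5.56e-08, edgeR). Hsp90b1, the ER HSP90 (GRP94) on which Toll-like receptors and integrins depend, was at 1308 and 1231 CPM in KO, against 616 and 653 CPM in WT, 2.0-fold. Hyou1, which exchanges the nucleotide of BiP, was at 156 and 146 CPM in KO and at 56.6 and 62.8 CPM in WT, 2.54-fold. For Manf, a small protein of the ER that binds BiP, the libraries gave 363 and 313 CPM in KO, against 158 and 138 CPM in WT, 2.28-fold. In each of these genes the distance between the genotypes exceeded that between libraries of a genotype. The J-domain partners of BiP split. Dnajb11 rose 1.83-fold and Dnajc3 1.79-fold, while Dnajb9 did not pass, with 58.6 and 49.2 CPM in KO and 49.5 and 49.5 CPM in WT (log2 0.12, 95% interval -0.16 to 0.41). Of the exon bases of Hsp90b1, 10.3% are shared with a gene on the opposite strand, and of those of Manf 8.85%; the kit does not keep the strand, so such reads cannot be assigned.

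The lectin chaperones hold glycoproteins that carry a single glucose. Calr, calreticulin, was at 3072 and 3521 CPM in KO LSK libraries, against 1209 and 1168 CPM in WT LSK libraries, 2.77-fold (log2 1.47, SE 0.106, adjusted p = 9.38e-07, edgeR). Its membrane-bound relative Canx, calnexin, rose less, 1.78-fold (log2 0.83, SE 0.0933). The intervals of the log2 fold changes, 1.24 to 1.70 for Calr and 0.63 to 1.03 for Canx, do not overlap.

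All 9 folding enzymes rose. P4hb, protein disulphide isomerase, was at 2410.2 and 2567 CPM in KO, against 1007 and 921 CPM in WT, 2.58-fold (log2 1.37, SE 0.101, adjusted p = 1.07e-06, edgeR). Pdia6 (P5) was at 1108 and 1206 CPM in KO and at 526 and 496 CPM in WT, 2.26-fold. Its relative Pdia4 (ERp72) was at 502 and 599.5 CPM in KO and at 241 and 265 CPM in WT, 2.18-fold. The isomerase Pdia5 was at 67.1 and 67.5 CPM in KO, against 28.6 and 21.5 CPM in WT, 2.69-fold. Creld2, an ER protein induced by stress, was at 169 and 163 CPM in KO, against 74.6 and 74.8 CPM in WT, 2.22-fold. In none of these genes did the genotypes overlap. The other 4 enzymes rose by less than 2-fold: Pdia3 (ERp57, the partner of the lectin chaperones) 1.91-fold, the thioredoxin-like Txndc11 1.77-fold and Txndc5 1.47-fold, and the proline isomerase Ppib 1.36-fold. Ppib shares 25% of its exon bases with Snx22 on the opposite strand and was not called without the second WT library (adjusted p = 0.133, edgeR); Txndc5 shares 11.9%.

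Of the 3 sensors 1 rose. Atf6, the membrane-bound transcription factor, was at 70.4 and 72.9 CPM in KO LSK libraries, against 49.96 and 49.3 CPM in WT LSK libraries, and rose 1.44-fold (log2 0.53, SE 0.116, adjusted p = 0.00281, edgeR). Ern1, which encodes IRE1, the enzyme that splices Xbp1 RNA, was at 54.4 and 53.5 CPM in KO and at 42.3 and 50.9 CPM in WT, and did not pass (log2 0.21, interval -0.08 to 0.50). Eif2ak3, which encodes PERK, gave 34.1 and 32.1 CPM in KO, between the 35.9 and 27.9 CPM of WT (log2 0.06, interval -0.29 to 0.40), and 8.05% of its exon bases are shared with an antisense gene. The intervals of these 2 genes leave room for a rise of up to 1.41-fold in Ern1 and 1.32-fold in Eif2ak3.

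Of the transcription factors, 2 rose. Xbp1 was at 501 and 533 CPM in KO LSK libraries, against 284 and 293 CPM in WT LSK libraries, 1.79-fold (log2 0.84, SE 0.0913, adjusted p = 1.74e-05, edgeR). Counts per gene do not tell its spliced from its unspliced form. Atf4 was at 177 and 163 CPM in KO, against 87.4 and 106 CPM in WT, 1.76-fold (log2 0.81, SE 0.114, adjusted p = 1.22e-04, edgeR). Ddit3, which encodes CHOP, was the single gene of the 38 with a negative value. It was at 12.5 and 10.3 CPM in KO, against 17.6 and 14.6 CPM in WT (log2 -0.50, interval -0.95 to -0.05, adjusted p = 0.0710, edgeR). It did not pass, but was called lower without the first KO library (adjusted p = 0.0471) and with upper-quartile factors (adjusted p = 0.0322). Part of its exon bases, 6.13%, lie in a second Ddit3 model of the annotation on the same strand.

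All 6 genes of ER-associated degradation, which returns misfolded proteins to the proteasome, rose. Edem1, a lectin that picks out glycoproteins that fail to fold, stood out among them with 199 and 198 CPM in KO LSK libraries, against 66.7 and 81.5 CPM in WT LSK libraries, 2.68-fold (log2 1.42, SE 0.113, adjusted p = 1.78e-06, edgeR). The others rose by 1.29- to 1.58-fold: the channel subunits Derl1 and Derl2, the ubiquitin ligase HRD1 (Syvn1) with its adaptor Sel1l, and Herpud1, which assembles that complex. The interval of Edem1, 1.18 to 1.67 on the log2 scale, lay above that of each of these 5 genes, the highest of which reached 0.90 in Derl2. Derl1, the smallest of the rises, was at 189 and 219.96 CPM in KO and at 156 and 162 CPM in WT, and was not called without the first WT library (adjusted p = 0.111), without the second (adjusted p = 0.0686) or with upper-quartile scaling (adjusted p = 0.0528).

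Among the 7 genes of entry into the ER, 6 rose. Sec61a1, the pore of the channel, was at 648 and 705 CPM in KO, against 316 and 321 CPM in WT, 2.12-fold, with 8.16% of its exon bases shared with an antisense gene. Ssr1, a subunit of the translocon-associated TRAP complex, was at 666 and 708 CPM in KO and at 317 and 307 CPM in WT, 2.20-fold (log2 1.14, SE 0.0922, adjusted p = 1.98e-06, edgeR). In both genes each KO library lay far above each WT library. The channel subunit Sec61b rose 1.72-fold, the signal peptidase subunits Spcs3 and Spcs2 rose 1.89- and 1.46-fold, and Ostc, of the oligosaccharyltransferase, rose 1.55-fold. Sec11c, a catalytic subunit of the signal peptidase, was at 331 CPM in the first KO library, but at 229 CPM in the second, beside 229 and 228 CPM in WT. It did not pass (log2 0.29, interval -0.07 to 0.65), though it was called without the second KO library (adjusted p = 2.16e-06) and without the filter on low counts (adjusted p = 0.0158). Ostc and Sec61b were likewise higher in the first KO library, at 448 and 114 CPM, than in the second, at 338 and 87.5 CPM.

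**Figure D3:**
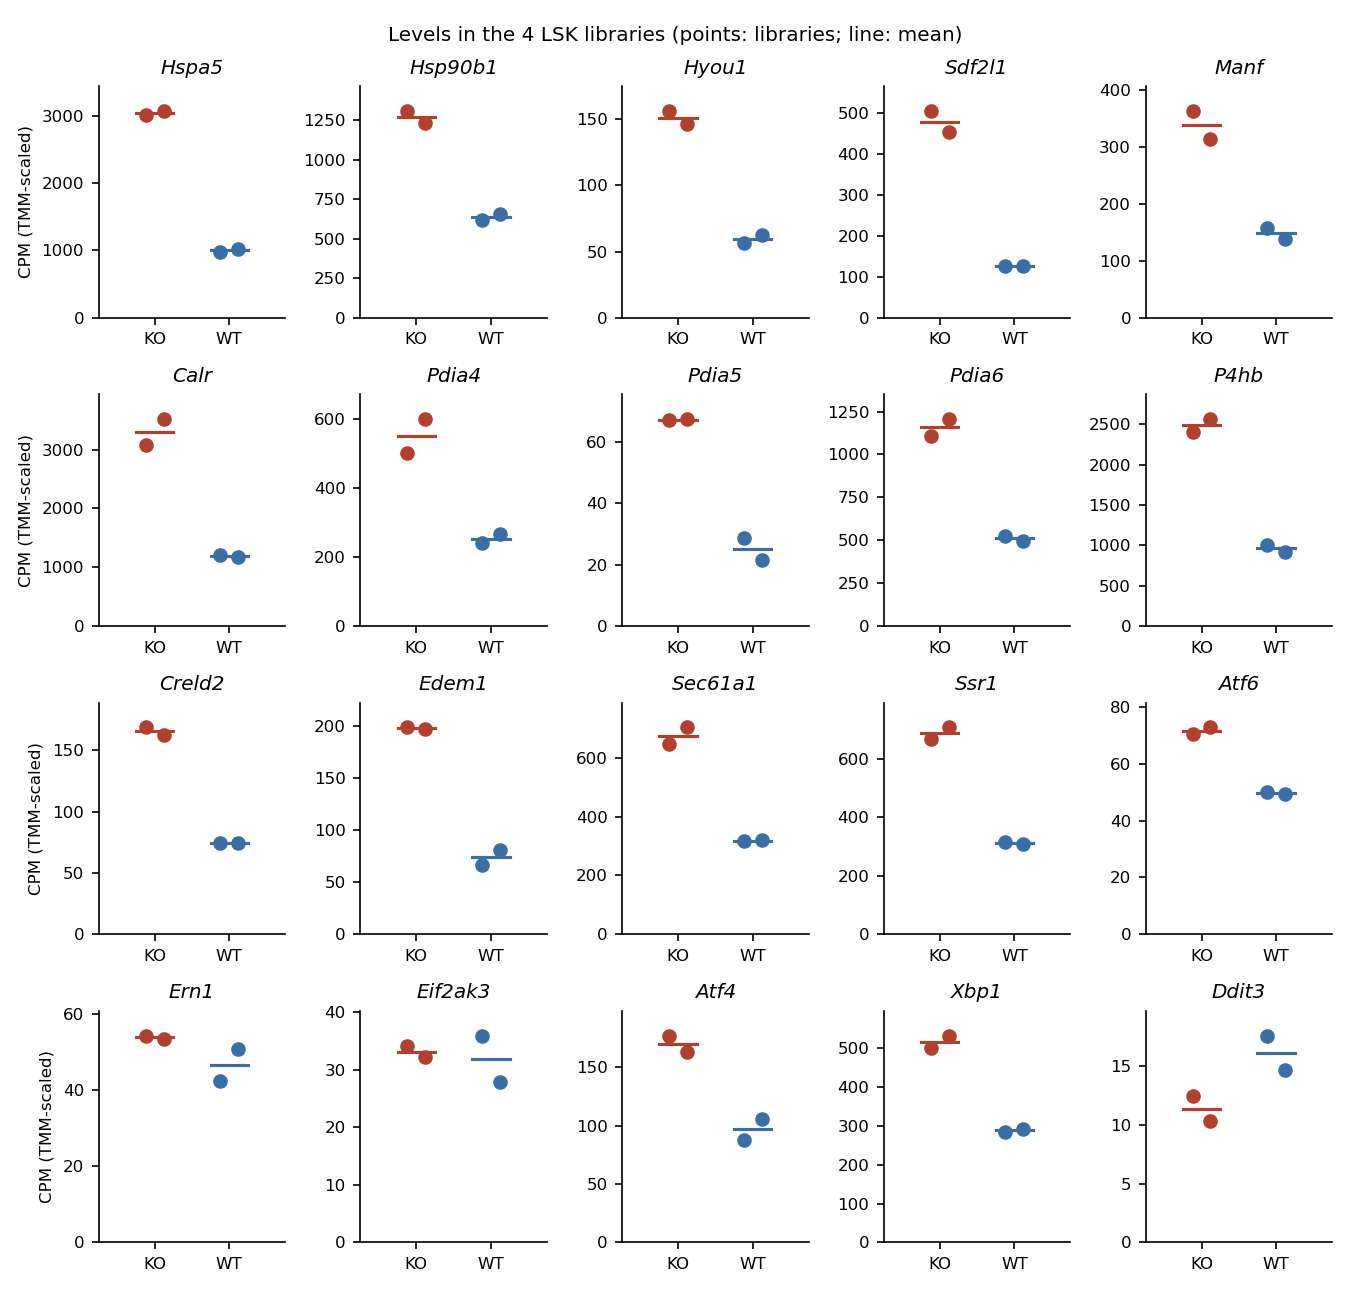
Level (CPM, scaled by TMM) in each of the 2 KO and 2 WT LSK libraries (points, lines at the mean) of the 14 genes that rose at least 2-fold and of the 6 sensors and transcription factors. Each axis starts at 0. The first 14 genes show no overlap of the genotypes; Eif2ak3 overlaps, and Ddit3 is lower in KO.

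Levels per length put the abundant chaperones first in both genotypes. On the scale of CPM per kilobase of exon, Calr was the highest of the 38 at 1145 in KO and 413 in WT, followed by P4hb at 869.9 in KO and 337 in WT. Hspa5 was the third at 718 in KO and the fourth at 237 in WT, exchanging places with Pdia3. Sdf2l1 was at 433 in KO, the rank of 5 among the 38, and at 114 in WT, the rank of 9. The sensors were at the low end: Eif2ak3 was last at 5.50 in KO and 5.29 in WT, Ern1 next to last in KO at 6.60 (5.70 in WT), and Atf6 had 7.76 in KO and 5.38 in WT. The order over the 38 genes was nearly the same in both genotypes (Spearman's rho 0.977 across genes, which share their libraries). Exon lengths are unions over all annotated transcripts, which makes these levels approximate for genes with many of them.

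The genes with an ERSE were compared with the rest. All 8 rose, with a median log2 fold change of 1.08, and so did 18 of the 22 genes whose window held none, with a median of 0.80. Of the genes outside the 38 that hold an ERSE and were tested, 1 of 9 rose and 1 fell (median 0.36), and of the 9903 tested genes with a window and no ERSE 21.7% rose (median -0.03). Sdf2l1, P4hb, Pdia5 and Edem1, among those with the largest changes, had no match to the exact element in their windows.

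Several sets of cell markers moved in KO LSK cells too, where 21% of all genes tested rose and 21.2% fell. Of the 10 LSK markers 8 fell and 1 rose, with sums of 2709 and 2961 CPM in KO and 4887 and 4597 CPM in WT. The 10 markers of monocytes and macrophages, of which 5 rose and 4 fell, summed to 588 and 845 CPM in KO and to 125 and 165 CPM in WT, with none at 0 in any LSK library. Among 6 markers of mast cells and basophils 5 rose and 1 fell, with sums of 366 and 406 CPM in KO and 366 and 393 CPM in WT, and none at 0. The largest part of these sums was Gata2, the 1 that fell (mean 179 CPM in KO, 279 CPM in WT). Cpa3 rose 1.61-fold, and Mcpt8, Ms4a2, Fcer1a and Prss34 rose 3.25-, 4.35-, 3.68- and 5.42-fold. Plasma cells, known for a large ER, showed in 10 markers without Xbp1 (Derl3 among them) sums of 911 and 1173 CPM in KO and 811 and 1167 CPM in WT, which overlap. The immunoglobulin gene Ighg1 was at 0 in the first KO and the second WT library. Of the 9 plasma cell genes tested, Xbp1 included, the only 1 that rose was Xbp1 itself, which is among the 38. The 2 that fell were Irf4 and Sdc1, which encodes syndecan-1. Of 8 B cell markers tested, 6 fell and 0 rose, such as Cd79a at 1.199 and 1.44 CPM in KO and 26.1 and 21.9 CPM in WT; the sums, mostly Ighm, were 1178 and 1874 CPM in KO and 1243 and 1586 CPM in WT. Of 9 erythroid markers 7 fell and 0 rose, with sums of 39.8 and 54.1 CPM in KO and 72.6 and 83.7 CPM in WT and with 4 and 3 of them at 0 in the KO libraries and 0 and 0 in the WT libraries. Of 6 markers of megakaryocytes and platelets 4 fell and 1 rose, with sums of 272 and 272 CPM in KO and 306 and 338 CPM in WT. Among the markers tested of T and NK cells 1 of 5 rose and 1 fell, of plasmacytoid dendritic cells 2 of 6 rose and 2 fell, and of neutrophils 2 of 9 rose and 2 fell. In each of these sets rises and falls were thus equal in number. The part of these markers in the rise of the 38 genes was not tested.

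Further genes of the secretory pathway, none of them among the 38, were read from lists of the same kind. Of 23 other genes of ER folding tested, 16 rose and 0 fell, with a median log2 fold change of 0.53. The smallest p-values were those of Mogs, the glucosidase that makes the first cut in the sugar chain (2.46-fold), Ero1l, the oxidase that recharges disulphide isomerases (3.13-fold), and Uggt1, which re-glucosylates unfolded glycoproteins (2.30-fold). Of 25 other genes of entry and glycosylation, 17 rose and 2 fell (median 0.46), led by the oligosaccharyltransferase subunits Rpn2 (2.38-fold), Rpn1 (2.41-fold) and Ddost (2.07-fold). Transport from the ER to the Golgi held 11 that rose of 20 and 0 that fell (median 0.43), with Lman2, Sec23b and Surf4 at 1.64-, 1.71- and 1.61-fold. Other genes of ER-associated degradation gave a smaller count, 7 of 16 that rose and 2 that fell (median 0.24); it was 3 and 0 without the first WT library, 4 and 1 without the second, and 3 rose with upper-quartile scaling. The called genes of smallest p there were Selenos, Nploc4 and Vcp, at 1.57-, 1.36- and 1.37-fold.

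Stress genes outside the 38 did not move in 1 direction. Of 13 other genes of stress sensing, 3 rose and 1 fell (median 0.21): the translation factor subunits Eif2s1 (1.76-fold) and Eif2b5, and Atf6b, rose, and Bbc3, which encodes the pro-apoptotic PUMA, fell by 1.01 on the log2 scale. Without the first KO library 5 rose. Of 12 targets of ATF4 and CHOP tested, 6 rose and 3 fell (median 1.19, also with the gene under the floor of 3 reads in WT at its bound). Asns, asparagine synthetase, rose 4.90-fold, to 132 CPM in KO, against 26.9 CPM in WT, and Ero1l belongs to this list as well. Ddit4, an inhibitor of mTOR signalling, fell to 22.6 CPM in KO, against 90.2 CPM in WT. The 3 that fell were Ddit4, Trib3 and Ppp1r15a, the eIF2-alpha phosphatase subunit. Besides Asns and Ero1l, Cebpb rose 2.47-fold and Nupr1 rose to 7.46 CPM in KO, against 2.94 CPM in WT. Chac1 rose to 7.05 CPM in KO, against 0.172 CPM in WT, and Stc2 to 1.82 CPM, against 0.0254 CPM. In WT, Chac1 was near and Stc2 under the floor of 3 reads, so their folds are not given.

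Genes of other programmes rose beside the folding genes. Proteins of primary granules are cargo of the ER. Of 10 genes tested from a list made mostly of them, 8 rose and 1 fell (median 2.37). Ctsg rose 7.24-fold, Prtn3 5.25-fold and Ms4a3 18.6-fold. Mpo and Elane, the most abundant of the list in KO, rose to means of 10650 and 2912 CPM, against 1135 and 178 CPM in WT. Lyz2 was the gene that fell, to 399 CPM in KO, against 581 CPM in WT. Ms4a3 and Serpinb1a, both among those that rose, do not encode granule cargo, so the count and the median are not those of cargo alone. The 11 genes of that list summed to 18969 and 21518 CPM in KO LSK libraries, against 4066 and 4281 CPM in WT LSK libraries. Proliferation genes held 17 that rose of 18 (median 0.88), with Rrm2, Hells and Aurka at 3.17-, 2.65- and 2.65-fold. Among heat shock genes, chaperones of the cytosol and mitochondria, 8 of 11 rose and 0 fell (median 0.78), Hspd1 2.24-fold, Hsp90aa1 1.90-fold and Hsph1 2.33-fold. Their part in the levels of the 38 genes was not tested.

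**Figure D4:**
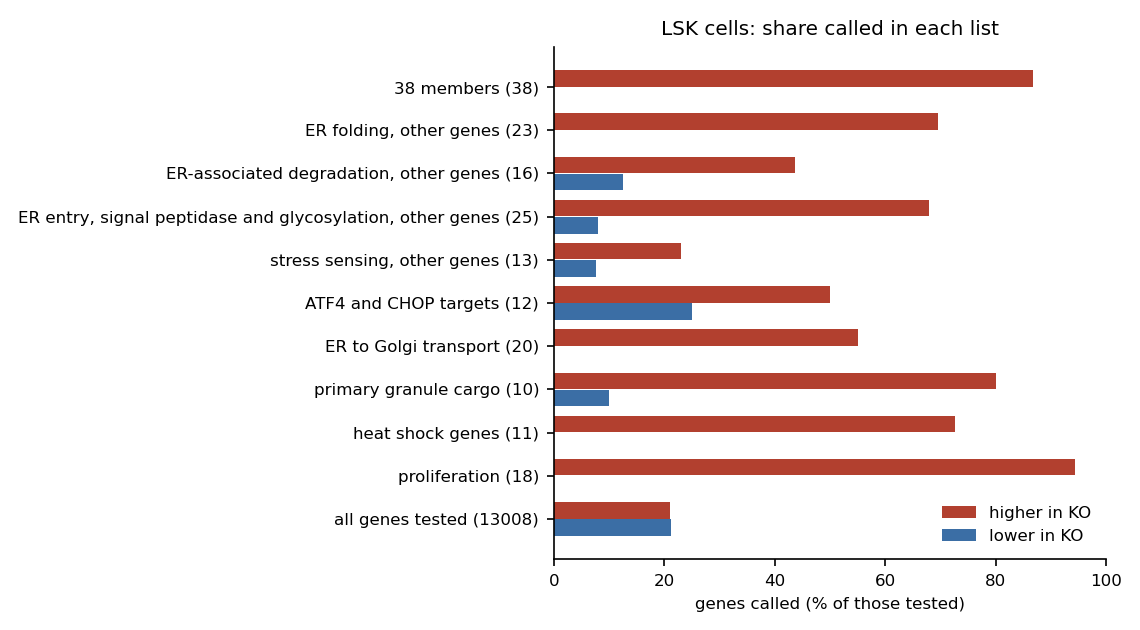
Share of genes called higher (red) and lower (blue) in KO LSK cells, in percent of those tested (number in brackets), for the 38 genes, the other lists and all genes tested. The 38 genes have no blue bar, and all genes tested have bars of about equal length (21% and 21.2%).

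In neutrophils, both genotypes held a library that stood apart. The second WT library had 37089.9 CPM of the 11 neutrophil markers, while KO libraries had 214061 to 644705 CPM and the first WT library 208595 CPM. It had 19828 CPM of 10 B cell markers and 13971 CPM of 10 plasma cell markers, against at most 772 and 1660.4 CPM in any other neutrophil library; none of either list was at 0 in it. The third KO library had 18355 CPM of 9 erythroid markers, of which none was at 0, while the first and second KO libraries had 36.2 and 1.94 CPM and the WT libraries 1735 and 3660 CPM. In the second WT library Txndc5, Pdia4, Herpud1, Atf6 and Ern1 were at their highest of the 5 neutrophil libraries. These 5 were 13.2% of the ER folding genes described here, while 30.3% of all genes tested were highest in that library. It was the lowest of the 5 libraries in 9 of the ER folding genes, P4hb, Xbp1 and Edem1 among them. These 9 were 23.7%, against 28.8% of all genes tested. The part of the B cell, plasma cell and erythroid markers in the values was not tested.

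No gene of the 38 was called in neutrophils, whose libraries varied widely within a genotype. Of 12836 genes tested with edgeR, 0% rose and 0% fell at an adjusted p under 0.05, and 13.9% had an unadjusted p under 0.05; of the 38 genes 1 did, Txndc5. DESeq2 called 272 genes higher and 605 lower, none of the 38 among them. The median log2 fold change over the 38 was 0.27, against 0.02 over all genes, with 28 positive and 10 negative values. Their summed level was 6081, 7397 and 4847 CPM in KO, against 5236 and 4796 CPM in WT, which overlap. As a share of counted reads they took 0.617%, 0.683% and 0.300% in KO, against 0.568% and 0.755% in WT. The KO mean was the higher on the scaled sums (6108 CPM in KO, 5016 CPM in WT) and the lower on the shares (0.533% in KO, 0.662% in WT), so the direction depended on the scale.

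The third KO library was low in many chaperones. It was the lowest of the 5 libraries in 18 of the 38 genes, or 47.4%, against 21.6% of all genes tested, and the highest in 7, or 18.4%, against 23.3%. Of the 18, 7 were chaperones and 5 folding enzymes. Hspa5 was at 539.6, 947 and 245 CPM in KO neutrophils, against 436 and 332 CPM in WT neutrophils (log2 fold change 0.59, SE 0.645, interval -0.94 to 2.11), so that KO spanned the WT values. That interval includes the log2 fold change of Hspa5 in LSK cells, 1.60, so a change of that size is not excluded here. P4hb was at 873, 911 and 491 CPM in KO and at 676 and 329.6 CPM in WT (log2 0.59, interval -0.75 to 1.94). The genes at their highest in that library were Ppib, Derl2 and 5 of the 7 genes of entry. Sec61b had 64.2, 67.2 and 211 CPM in KO, against 51.0 and 99.6 CPM in WT. The second KO library was the highest of the 5 in 23 genes, or 60.5%, against 19.5% of all genes.

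Few genes separated the genotypes in neutrophils. All KO libraries lay above all WT libraries in 3 of the 38 genes and below them in 1, while 17% and 17.5% of all genes did so. Edem1 was at 284, 307 and 212 CPM in KO, against 198 and 144 CPM in WT (log2 0.65, SE 0.429, interval -0.37 to 1.66, adjusted p = 0.539, edgeR). The others were Dnajb9, at 27.7, 33.8 and 31.6 CPM in KO and 13.8 and 24.9 CPM in WT, and Derl1. Txndc5, lower in each KO library, was at 53.3, 14.3 and 14.7 CPM in KO, against 72.9 and 153 CPM in WT (log2 -2.04, SE 0.680, adjusted p = 0.263, edgeR). Pdia4 was at 71.6, 75.6 and 25.4 CPM in KO, against 66.5 and 174 CPM in WT (log2 -1.06, interval -2.50 to 0.38), and its value turned to 0.13 without the 2 libraries that stand apart. Sdf2l1, the gene of largest change in LSK cells, was at 94.1, 94.7 and 50.4 CPM in KO neutrophils, against 132 and 83.1 CPM in WT neutrophils (log2 -0.43, interval -1.48 to 0.62). Without the 2 libraries that stand apart, which leaves the first WT library alone in its group, the median was 0.30. In that fit 34 of the 38 values were positive, against 28 with all neutrophil libraries.

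The sensors and transcription factors overlapped between the genotypes in neutrophils. Xbp1 was at 403, 504 and 307 CPM in KO, against 357 and 245 CPM in WT. Atf4 was at 47.9, 58.8 and 35.8 CPM in KO and at 48.6 and 46.4 CPM in WT. Ddit3 was at 5.65, 14.7 and 9.48 CPM in KO, against 8.22 and 11.1 CPM in WT. In each of them the genotypes overlapped. Atf6 was at 28.1, 33.6 and 21.7 CPM in KO, inside the 17.1 and 45.8 CPM of WT. Ern1 gave 9.03, 7.90 and 6.67 CPM in KO and 7.58 and 15.4 CPM in WT, and Eif2ak3 gave 31.9, 33.5 and 9.66 CPM in KO and 28.2 and 16.5 CPM in WT.

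**Figure D5:**
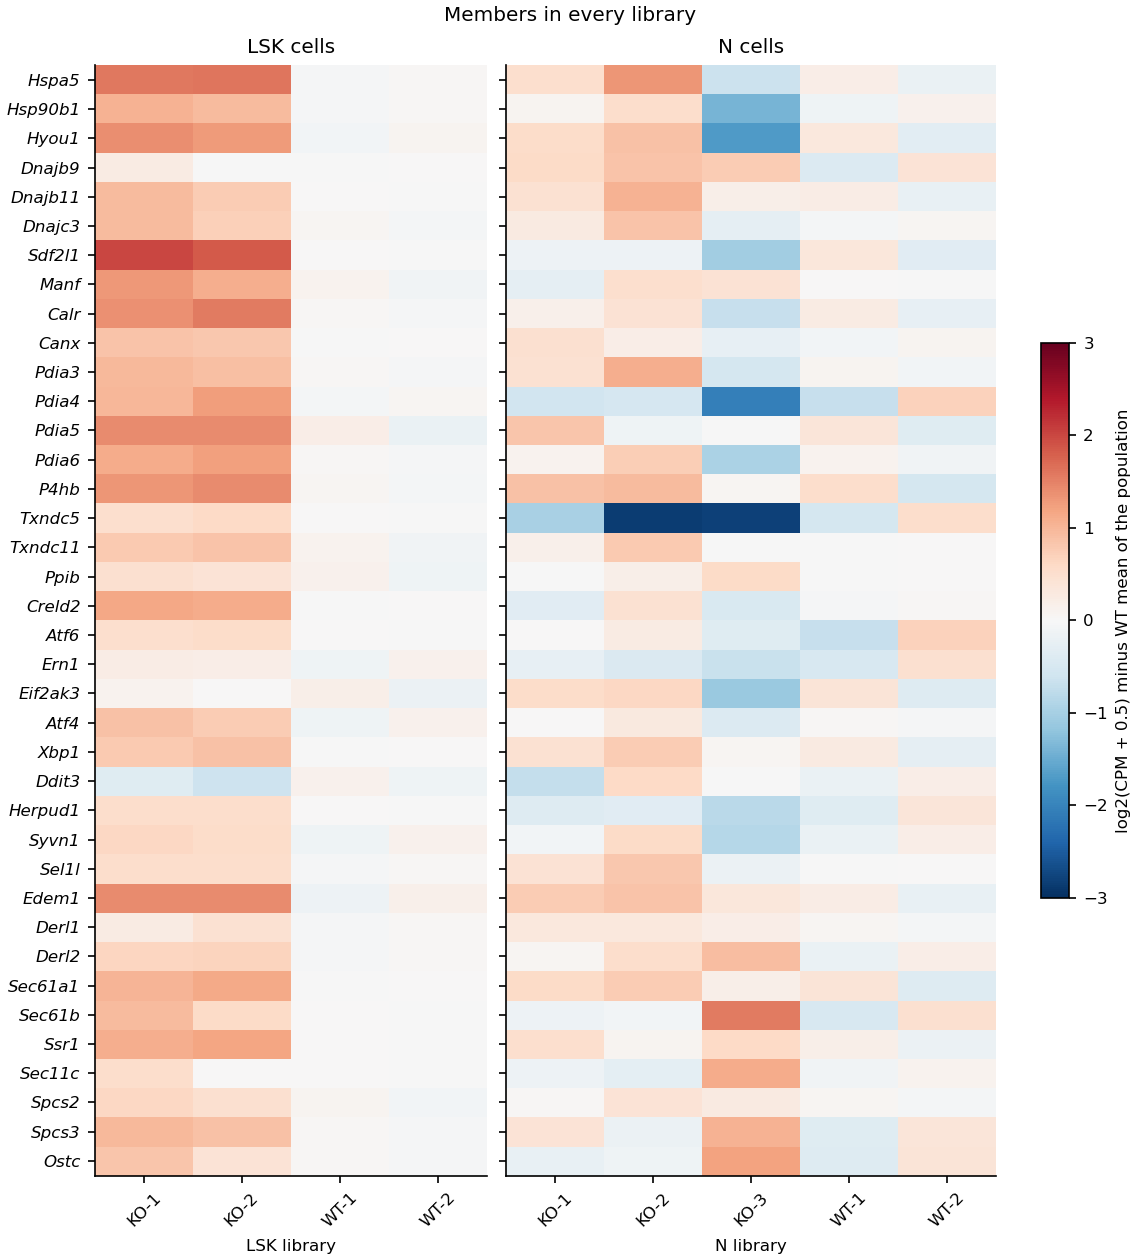
Each of the 38 genes (rows) in each library (columns, KO left of WT) as log2(CPM + 0.5) minus the mean of the WT libraries of its population. Both KO LSK columns are red for nearly all genes, while the KO neutrophil columns differ among themselves, the third being blue for Hspa5, Hsp90b1 and Hyou1 and red for Sec61b, Sec11c and Ostc.

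The other lists gave no call in neutrophils in the edgeR test either. Among the alternatives, 1 other folding gene was lower in KO with DESeq2 and in 1 fit of all 9 libraries, and 1 heat shock gene was lower with DESeq2. Without the first WT library 3 targets of ATF4 and CHOP and 1 other folding gene were higher, and 1 target of ATF4 and CHOP and 1 other degradation gene were lower. Over the lists the medians of the log2 fold change were -0.32 for other folding genes, 0.09 for other degradation genes, 0.11 for other genes of entry and 0.44 for ER to Golgi transport. Heat shock genes had a median of -0.65 and targets of ATF4 and CHOP 0.29. These values stand beside the same spread between libraries as those of the 38 genes.

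Whether the effect of the genotype differed between the populations was tested as an interaction over 13807 genes in 1 fit of all 9 libraries. None of the 38 genes passed, and 0.029% of all genes did; at an unadjusted p under 0.05 stood 7 of the 38, or 18.4%, against 15.7% of all genes. The effect in LSK cells minus that in neutrophils was positive for 34 of the 38, with a median of 0.68 on the log2 scale, against 0.21 over all genes. For Sdf2l1 the effect in this fit was 1.93 in LSK cells and -0.47 in neutrophils, a difference of 2.41 (SE 0.543, interval 1.15 to 3.66, adjusted p = 0.178, edgeR). For Calr the difference was 1.51 (interval 0.15 to 2.87, adjusted p = 0.279, edgeR). For Txndc5, with a positive value in LSK cells and a negative one in neutrophils, it was 2.61 (interval 0.51 to 4.71, adjusted p = 0.245, edgeR). A different effect of the genotype in the 2 populations was thus not detected for any of the 38 genes, with intervals that are wide. In this fit 0 of the 38 were called in LSK cells either, so the lack of a call says little about a difference. The log2 fold changes of the 38 genes in the 2 populations had a Spearman's rho of 0.13 across genes.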

How the data were processed

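The authors deposited, for each population, raw read counts per gene, which were tested, and normalized values (signal), which were compared with the counts divided by 1 factor per library and not used further: of genes with at least 100 reads, 99.87% to 99.89% in LSK libraries and 100% in neutrophil libraries, and all 38 genes, were equal within 0.01%. Polyadenylated RNA was purified with an RNeasy Micro kit and made into libraries with SMART-Seq v4, a kit that does not keep the strand, per the labels' protocols. Per the submitters' processing notes, STAR, featureCounts and DESeq2 were used with mm10 and GRCm38; these notes give no version or setting. Counted reads were 18827892 to 20264417 per LSK library and 21012702 to 27434086 per neutrophil library; 3 reads, the floor for a count of 0, were 0.109 to 0.159 CPM, for counting error only. LSK genes were named by Ensembl identifier through GENCODE M21.

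The test within a population was that of edgeR 4.0.16 in R 4.3.3 (TMM factors, expression filter by group, robust quasi-likelihood F test, Benjamini-Hochberg over all genes, threshold 0.05), and the interaction over 35200 genes joined by symbol. Alternatives were RLE and upper-quartile factors, no filter, a fit without robust estimation, DESeq2 1.42.0, a replicate block, leaving out each library, and 1 fit of all 9 libraries; a crossed replicate block in LSK cells and leaving out the 2 neutrophil libraries that stand apart were added after seeing the data. No replicates were alike within sampling noise (lowest chi-square per gene 9.39). Intervals are 95%. The 38 genes, the lists, the roles and the alternatives were chosen with earlier results of these data known. Values in every library are given for genes called with a change of at least 2-fold and for the sensors and transcription factors, and of other lists up to 3 called genes with the smallest p are named, with some further genes chosen after their values were seen. Protein sequences were not used here.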

Additional observations from a re-analysis of the deposited data

How the results depend on the processing

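In LSK cells, 31 of the 33 rises held under each of 11 alternatives; Derl1 and Ppib did not. In 1 fit of all 9 libraries the counts of genes higher and lower in KO LSK cells and of the 38 that rose were each 0. With upper-quartile scaling the median of the 38 was 0.74, 1 of them (Ddit3) was lower, and Eif2ak3 turned to -0.037. Leaving out a library gave 1676 to 2816 genes lower in KO LSK cells and 0 or 1 of the 38 lower, and moved Eif2ak3 between -0.11 and 0.25; a lone library is then assumed to vary like the other group. In neutrophils 0 of the 38 were called under any alternative. Genes higher and lower in KO numbered 272 and 605 with DESeq2, 120 and 443 in 1 fit of all 9 libraries, 76 and 258 with no filter, and 0 to 207 and 0 to 394 with a library left out. The median of the 38 was 0.086 to 0.34 with a library left out. Sdf2l1 then ranged from -0.76 to 0.0029 and Spop from -0.037 to 0.40; with upper-quartile scaling Spop was at -0.0031. Pdia4 was at 0.13 without the 2 libraries that stand apart, an alternative chosen after seeing the data. The causes were not tested.

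The correlation of same-numbered deviations from the genotype mean was 0.004 in LSK cells, and 0.239 and -0.024 in neutrophils. With 2 LSK libraries per genotype the deviations mirror each other, so these values cannot tell whether replicate numbers pair the libraries. With the replicate block 34 of the 38 rose in LSK cells, Sec11c being the one gained (adjusted p = 0.0445, edgeR); with the LSK numbers crossed, an alternative chosen after seeing the data, 33 rose and Sec11c did not pass (adjusted p = 0.133). With the block 86 genes were higher and 248 lower in KO neutrophils. With 2 WT libraries in each population, a call rests on few libraries. The lowest count of any of the 38 genes was 194 reads in an LSK library (Ddit3) and 66 reads in a neutrophil library (Pdia5).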
